A study of Homo sapiens with 30 samples.

Results

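The 6608 regions bound by MBD3 were set against the 42925 regions bound by CTCF in HEK293T cells whose CTCF had been left in place; HEK293T is an immortal line from human embryonic kidney. MBD3 regions were the rows of the MBD3 peak list after rows sharing at least 1 bp had been joined, and they make up 6608 of the 67105 regions in the 4 lists of cells without auxin. An MBD3 region is called at CTCF when it shares 1 bp or more with a CTCF region, and away from CTCF otherwise. This put 3727 MBD3 regions at CTCF, 56.4% of the list, and 2881 away from it.

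The study used chromatin immunoprecipitation with sequencing (ChIP-seq), in which DNA fragments held by an antibody are sequenced and their pile-ups are called as peaks. All cells compared here carried a CTCF edited for auxin-inducible degradation and had been transfected with the plasmids pcDNA3.1-ScFv-miniIAA7-mEGFP and pcDNA3.1-AtAFB2-mCherry, and they were kept for 72 h in medium without the auxin indole-3-acetic acid (IAA). A further label calls this treatment DMSO. The antibodies were against MBD3, CTCF, TET1 and TET2, with 3 samples each, and the authors pooled the 3 samples of an antibody before calling peaks. Every value below therefore comes from 1 pooled list per antibody, with no spread between samples and no test across cultures. Whether the edited cells are 1 clone, and what share of them took up the plasmids, is not stated in the labels. Peak lists hold no expression, so the cell type was not checked against markers.

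MBD3 belongs to NuRD, the nucleosome remodelling and deacetylase complex, which joins an ATPase that moves nucleosomes to enzymes that remove acetyl groups from histones. Mammalian MBD3 has a methyl-CpG-binding domain, but binds methylated DNA poorly compared with its relative MBD2. CTCF is a zinc-finger protein that binds a long DNA motif, positions the nucleosomes on either side of it and, with cohesin, anchors chromatin loops. TET1 and TET2 oxidise methylated cytosine.

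Strength is given as fold enrichment, the height of a peak over the background of the authors' peak caller, and as −log10 q, the authors' measure of how sure the call is, where a higher number means a surer call. Both are the authors' values per peak and were compared only within a list. The MBD3 list had a median fold of 5.41 (quartiles 4.49 and 6.73) and a median −log10 q of 5.20. The CTCF list had a median fold of 13.6 (quartiles 7.43 and 24.2) and a median −log10 q of 33.4; the lists come from different antibodies and are not on a common scale. The MBD3 fold values were coarse, with 22.9% of regions on the 10 commonest values, against 7.97% in the CTCF list. How many reads went into a list is unknown. Brackets after a share hold its Wilson 95% interval, which covers the counting of regions and no other error.

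The overlap took in most of the MBD3 list and a small part of the CTCF list. Of the MBD3 regions, 56.4% (55.2% to 57.6%) were at CTCF, while 8.67% of CTCF regions, 3722 in number, carried MBD3. MBD3 regions covered 0.0481% of the span of chromosomes 1 to 22 and X between the first and last listed positions, and CTCF regions 0.416%. Matching was almost 1 to 1. No MBD3 region touched more than 1 CTCF region, 3717 CTCF regions held a single MBD3 region, and 5 held 2. The rule for overlap bears on these shares: with 50% of both regions required to overlap, 24.9% of MBD3 regions were at CTCF and 3.83% of CTCF regions carried MBD3, and with −log10 q of at least 10 in every list 2.46% of CTCF regions did. The overlap was larger at the strong end of both lists: 90 of the 100 MBD3 regions of highest fold were at CTCF, and 93 of the 100 CTCF regions of highest fold carried MBD3. Among the 1000 of highest fold these were 827 MBD3 regions and 707 CTCF regions.

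Strong MBD3 regions were more often at CTCF than weak ones. In 10 equal strata of MBD3 fold, where tied values were split in list order, the share at CTCF was 43.0% (39.2% to 46.8%) in the weakest stratum, 36.3% (32.7% to 40.0%) in stratum 3 and 84.0% (81.0% to 86.6%) in the strongest. The order was clearer by −log10 q, with 23.8% (20.7% to 27.1%) in the lowest stratum and 88.5% (85.8% to 90.7%) in the highest, and no step down between neighbouring strata. Width ran the other way. Between 59.6% and 69.1% of MBD3 regions were at CTCF in the 6 strata of narrowest regions, against 30.7% (27.3% to 34.3%) in the stratum of widest regions, those of 312 bp or more. Narrow, surely called MBD3 regions were thus mostly at CTCF, and wide or weakly called ones mostly away from it.

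**Figure D1:**
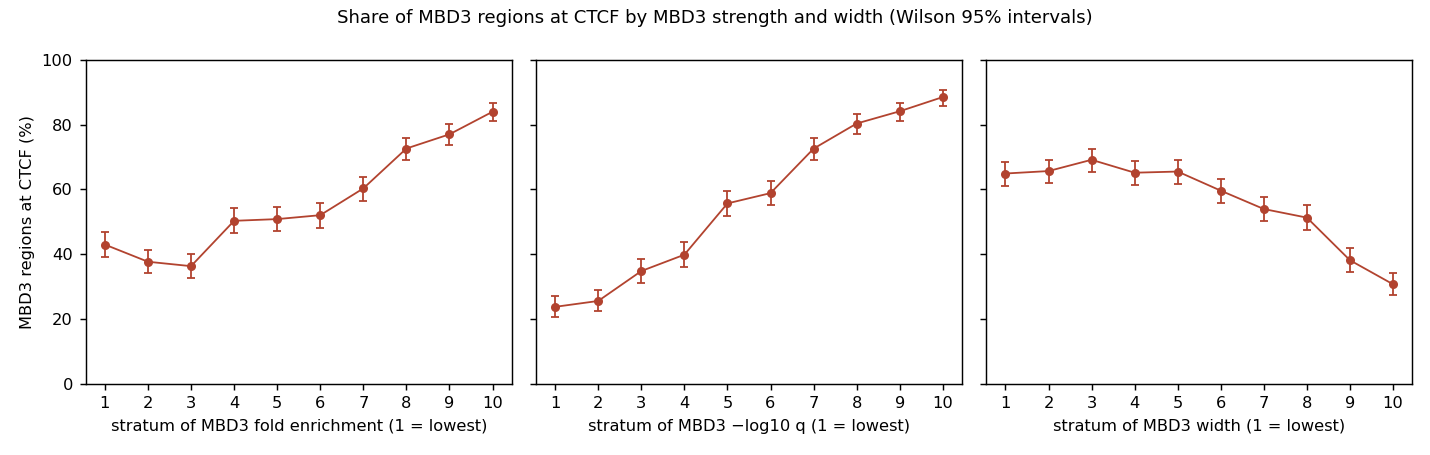
Share of the 6608 MBD3 regions that share a base with a CTCF region (y axis, %), in 10 strata of MBD3 fold, of MBD3 −log10 q and of MBD3 width (x axes, lowest stratum at the left); bars are Wilson 95% intervals. The share is 84.0% in the stratum of highest fold and 88.5% in that of highest −log10 q, and 30.7% in the stratum of widest regions.

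MBD3 regions at CTCF had a median fold of 5.91 (quartiles 4.85 and 7.19) and a highest fold of 16.7, against a median of 5.00 (quartiles 4.15 and 5.76) and a highest fold of 11.8 for regions away from CTCF. Their median −log10 q was 6.89 at CTCF and 3.53 away, and 70.1% of regions at CTCF but 28.6% of those away reached a −log10 q of 5. The quartile ranges of fold overlap, so the classes are shifted rather than separated. The order of the median folds depended on the limit for calls. Among regions with a −log10 q of at least 5 in every list the medians were 6.68 at CTCF and 6.59 away. At −log10 q of at least 10 in every list the order turned, to 8.13 at CTCF and 8.64 away, with 83.8% of MBD3 regions then at CTCF. These limits also take out CTCF regions, so MBD3 regions that overlap a weakly called CTCF region then count as away. At −log10 q of at least 10, 164 MBD3 regions were away, against 129 with the limit on MBD3 alone. Regions at CTCF were narrower, with a median width of 180 bp (quartiles 162 and 214 bp), against 205 bp (quartiles 171 and 270 bp) away.

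The 5 strongest MBD3 regions at CTCF all sat on CTCF regions near the top of the CTCF list. The MBD3 region at 25314153 to 25314579 on chromosome 4 had 16.7-fold enrichment, and its CTCF region ranked 63 by fold, at 77.2-fold. On chromosome 1, the region at 23866361 to 23866592 had 14.4-fold for MBD3 and 78.5-fold for CTCF, and the region at 66708420 to 66708649 had 14.0-fold for MBD3 and 97.5-fold for CTCF. The last pair of the 5 also had 14.0-fold for MBD3, one at 32527040 to 32527259 on chromosome 17, with CTCF at 100.4-fold, and one on chromosome 2 at 178029383 to 178029646, with CTCF at 102.7-fold. All 5 MBD3 summits, the bases of highest pile-up, lay within 10 bp of the CTCF summit, and TET1 was called at all 5 while TET2 was called at none. Of all MBD3 regions at CTCF, 90.5% carried TET1 and 4.08% TET2. Positions are those of the lists, in the hg19 build, counted from 1. Genes at these positions are not given, because the gene table used here is of another build.

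At the strongest CTCF sites the rank of MBD3 varied. The 5 CTCF regions of highest fold that carried MBD3 were also the 5 of highest fold in the whole CTCF list, at 104.4- to 126-fold. The strongest, at 58299121 to 58299535 on chromosome 12, had 126-fold for CTCF and 11.6-fold for MBD3, rank 35 in the MBD3 list. The second, at 147553417 to 147553861 on chromosome 1, had 121-fold for CTCF and 13.6-fold for MBD3, rank 8. The third, at 73121727 to 73122273 on chromosome 6, had 109.5-fold for CTCF, but its MBD3 region stood at 6.59-fold, rank 1754 of 6608. The other two had 10.7-fold for MBD3 at 153552268 to 153552463 on chromosome 6 and 13.5-fold at 120688452 to 120688630 on chromosome 1. MBD3 fold at the top of the CTCF list thus ranged from 6.59 to 13.6.

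Strong CTCF sites without MBD3 existed too. The 5 of highest fold had 73.7- to 86.8-fold for CTCF and ranks 23 to 74 in that list. The first, on chromosome 13 at 78815451 to 78815825, had 86.8-fold, and the next, on chromosome 5 at 136105767 to 136106165, had 85.4-fold. One on chromosome 4 at 163418756 to 163419068 had 82.7-fold. The last pair was on chromosome 6, at 166689170 to 166689517 with 76.0-fold and at 104973604 to 104973961 with 73.7-fold. TET1 was called at all 5 and TET2 at none. Of all CTCF regions without MBD3 at 35.3-fold or more, 94.8% carried TET1 and 0.427% TET2. The nearest MBD3 summit was 26.1 kb off at the site on chromosome 13 and 1047 kb off at the site on chromosome 4. With the depth unknown, a missing MBD3 call says that no peak passed the authors' threshold there, not that MBD3 was absent.

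Across the 3727 pairs of an MBD3 region and its CTCF region, the strengths went together. Spearman's rho between MBD3 fold and CTCF fold was 0.56, and between the −log10 q values it was 0.54. Between MBD3 fold and CTCF −log10 q it was lower, at 0.26. These describe regions that all come from the same 2 pooled lists. In 10 strata of CTCF fold over the pairs, the median MBD3 fold was 4.94 (quartiles 3.95 and 6.73) in the lowest, 4.49 (3.86 and 5.33) in stratum 2 and then higher in each following stratum, up to 8.42 (7.18 and 9.64) in the highest, where CTCF stood at 57.2-fold or more. Neighbouring strata overlap in their quartiles. The lowest stratum broke the order, and within its 373 pairs, of CTCF fold up to 12.6, rho was 0.07.

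**Figure D2:**
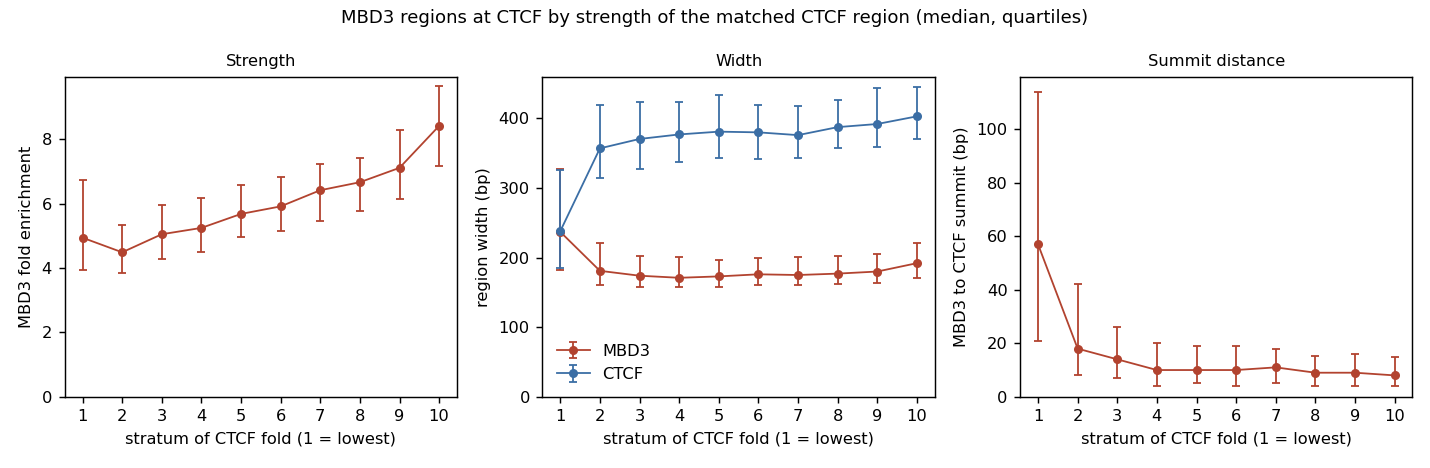
The 3727 pairs in 10 strata of CTCF fold (x axes, lowest at the left): MBD3 fold enrichment, the widths of MBD3 and CTCF regions in bp, and the distance between their summits in bp (y axes); points are medians and bars reach to the quartiles. The median MBD3 fold is 4.49 in stratum 2 and 8.42 in stratum 10 while the MBD3 width stays between 171 and 192 bp, and stratum 1 stands apart with a width of 237 bp and a distance of 57 bp.

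MBD3 width did not follow CTCF fold in this way, with a rho of −0.06, while CTCF width did to some extent, with a rho of 0.32. The contrast was smaller without the lowest 10% of CTCF fold, at 0.09 for MBD3 width and 0.17 for CTCF width. The MBD3 region was narrower than its CTCF region in most pairs: the median width was 180 bp for MBD3 and 376 bp for CTCF, the median ratio of the widths was 0.491 (quartiles 0.419 and 0.592), and MBD3 was the wider in 5.55% of pairs. Of the 3727 MBD3 regions, 3256, or 87.4%, lay wholly inside the CTCF region, 81 covered it whole and reached past it, and 390 overlapped it at an edge. The rho between the widths of a pair was 0.06 over all pairs and 0.18 over the 3354 pairs without the lowest 10% of CTCF fold. From stratum 2 to 10 of CTCF fold the median MBD3 width stayed between 171 and 192 bp, and the median CTCF width was between 357 and 403 bp, against 237 bp for MBD3 and 238 bp for CTCF in stratum 1. The narrowest MBD3 region in the list had 149 bp, close to the lower quartile of 162 bp at CTCF.

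The MBD3 summit lay close to the CTCF summit. The median distance between the summits was 12 bp (quartiles 5 and 23 bp). It was within 10 bp in 46.1% of pairs, within 25 bp in 77.3%, within 50 bp in 89.7% and over 200 bp in 75 pairs. The CTCF summit was inside the MBD3 region in 3604 pairs, or 96.7%. Counted along the chromosome, MBD3 summits were on the higher-coordinate side in 1940 pairs, on the lower-coordinate side in 1699 and on the same base in 88, with a median signed offset of 1 bp (quartiles −10 and 13 bp). The strand of the CTCF motif was not used, so the offset is not oriented to it.

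The offset was smaller at stronger CTCF sites. Its median was 18 bp in stratum 2 of CTCF fold and 8 bp in stratum 10, where 99.5% of MBD3 summits were within 50 bp of the CTCF summit. In the lowest stratum the median was 57 bp and 46.9% were within 50 bp. CTCF regions joined from several rows gave looser pairs, with a median distance of 18 bp (upper quartile 128 bp) in 160 pairs, against 11 bp (upper quartile 23 bp) in the 3567 pairs with a CTCF region of 1 row.

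**Figure D3:**
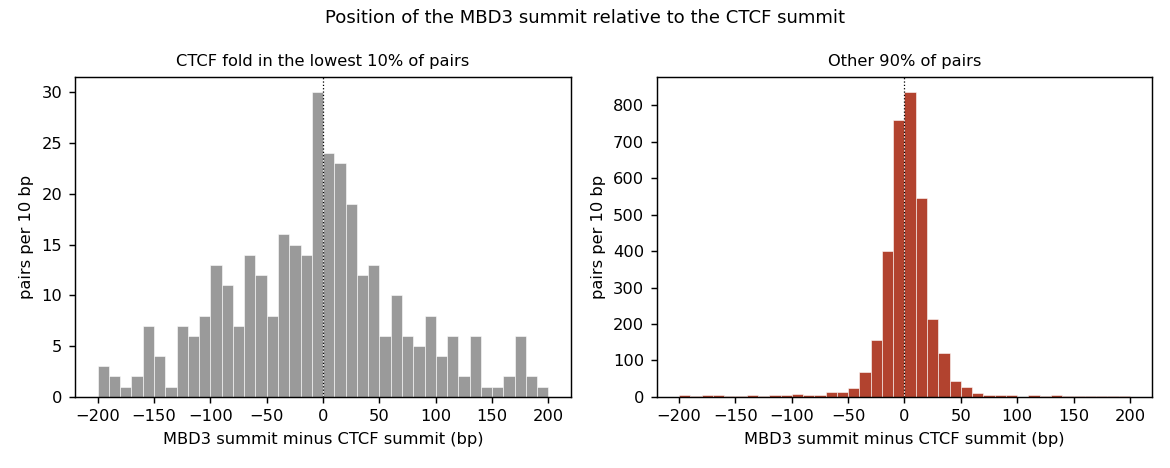
MBD3 summit position minus CTCF summit position (x axis, bp; within 200 bp) against the number of pairs per 10 bp (y axis), for the 373 pairs in the lowest 10% of CTCF fold at the left and the other 3354 pairs at the right, on separate y scales. Of the 373 pairs of the left panel 46.9% lie within 50 bp, and of the 3354 of the right panel 94.4%.

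The pairs with weak CTCF differed from the others in MBD3 width, summit distance and TET calls. MBD3 regions in the lowest 10% of CTCF fold had a median width of 237 bp, against 178 bp for the other pairs, and were the wider of the pair in 49.1% of cases, against at most 3.22% in any other stratum. TET1 was called at 46.6% of them (41.6% to 51.7%) and at 95.4% (94.6% to 96.0%) of the other pairs. TET2 was called at 27.9% (23.6% to 32.6%) of them and at 1.43% (1.08% to 1.89%) of the others. Their median MBD3 fold was 4.94, near the 5.00 of MBD3 regions away from CTCF, but their upper quartile was 6.73 against 5.76. Their median −log10 q was 4.37, against 3.53 away. Of the regions away from CTCF, 13.9% carried TET1 and 9.23% TET2. The TET1 share of the pairs with weak CTCF was thus between those of the other pairs and of regions away from CTCF, and their TET2 share above both.

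Of the 5 CTCF regions that held 2 MBD3 regions, the 3 with the highest CTCF fold show how these lay. At 20126925 to 20127897 on chromosome 6, a CTCF region of 973 bp and 62.5-fold held an MBD3 region of 8.23-fold whose summit was 5 bp from the main CTCF summit and another of 6.17-fold whose summit was 644 bp from it but 38 bp from the nearest CTCF summit. The CTCF region at 114179828 to 114180498 on chromosome 6 held MBD3 regions of 4.08- and 4.53-fold, and that at 21216294 to 21216978 on chromosome 20 held regions of 5.38- and 5.00-fold. In the last of these both MBD3 summits were within 9 bp of a CTCF summit. CTCF regions joined from several rows carried MBD3 in 17.2% (14.9% to 19.8%) of 900 cases, against 8.49% (8.23% to 8.76%) of the 42025 regions of 1 row. Within the 10% of CTCF regions of highest fold the shares were 58.4% (48.7% to 67.5%) of 101 and 45.1% (43.6% to 46.6%) of 4192. The joined regions were also wider, at a median of 584 against 274 bp over all CTCF regions and 673 against 372 bp in that 10%. Shares at like width were not compared.

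CTCF regions with MBD3 were compared with those without it within strata of CTCF fold, though fold still differed within stratum 10. In stratum 10 of all CTCF regions, at 35.3-fold or more, 1951 of 4293 regions carried MBD3, or 45.4%, and those with MBD3 were wider, at a median of 388 bp against 362 bp, and had a higher −log10 q, at 206 against 153, with a median fold of 45.5 against 40.4. In stratum 6, where just 62 of 4292 carried it, the medians were 332.5 against 279 bp for width and 47.7 against 36.2 for −log10 q, at 15.7- against 15.3-fold. CTCF regions with MBD3 were the wider and the more surely called ones in each of strata 3 to 10. In strata 1 and 2 they were also wider, but their −log10 q was lower, at 3.40 against 4.23 and 6.82 against 7.71.

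CTCF regions with no other CTCF region within 100 kb carried MBD3 less often. In stratum 10, MBD3 was called at 51.1% (42.9% to 59.2%) of the 141 regions whose nearest CTCF neighbour was within 1 kb, and at 42.7% (39.5% to 45.9%) of the 926 with a neighbour at 30 to 100 kb. For the 149 with none within 100 kb it was 31.5% (24.6% to 39.4%). The median CTCF fold was between 41.1 and 42.4 in all 6 distance classes of this stratum.

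TET1 was the near-constant companion of MBD3 at CTCF. It was called at 57.1% of all MBD3 regions and at 34.4% of all CTCF regions, but at 3373 of the 3727 MBD3 regions at CTCF, or 90.5% (89.5% to 91.4%), and at 401 of the 2881 away, or 13.9% (12.7% to 15.2%). Both shares went with the sureness of the MBD3 call. In the lowest stratum of MBD3 −log10 q TET1 was called at 59.9% of regions at CTCF and 7.34% of those away, and in the highest at 98.8% at CTCF and 63.2% away. By MBD3 fold the order was weaker for regions away: 17.2% in the lowest stratum, 9.03% in stratum 3 and 34.0% in the highest. Of the MBD3 regions with −log10 q of at least 10, TET1 was called at 866 of 882 at CTCF and at 62 of 129 away. With that limit set on every list the share away was 20.7%, and under the rule of 50% overlap it was 42.0%. Within strata of CTCF fold, TET1 was called more often where MBD3 was: at 99.0% of regions with MBD3 against 94.8% of those without in stratum 10, 80.1% against 40.5% in stratum 7, and 45.1% against 6.02% in stratum 1. The 3 summits were close at these sites. In the 3373 cases with all 3 proteins the median distance to the CTCF summit was 11 bp for MBD3 and 6 bp for TET1, and MBD3 was the nearer in 1046 cases, TET1 in 2181. In these cases rho with CTCF fold was 0.57 for MBD3 fold and 0.82 for TET1 fold, and rho between MBD3 and TET1 fold was 0.57. The MBD3 and TET1 lists are not on a common scale. Their median −log10 q was 5.20 and 14.2, with 22.9% and 9.80% of regions on the 10 commonest fold values. How far this bears on the summit distances and on rho was not tested.

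MBD3 regions at CTCF with TET1 were stronger and better centred than those without it. The 3373 with TET1 had a median MBD3 fold of 6.04, against 5.05 for the 354 without, and a median distance to the CTCF summit of 11 bp, against 38 bp. These classes also differed in CTCF fold and were not compared at like CTCF fold. TET1 was called at 46.6% of the pairs in the lowest stratum of CTCF fold, where the median summit distance was 57 bp, and at 99.7% in the highest. Where both were called, MBD3 and TET1 summits lay at a median of 11 bp from each other at CTCF, against 44 bp (quartiles 18 and 99 bp) away from it, and 93.2% were within 50 bp at CTCF, against 54.9% away. The 401 MBD3 regions away from CTCF with TET1 were wide, at a median of 251 bp, against 201 bp for regions away from CTCF without TET1.

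TET2 was called less often at MBD3 regions at CTCF than at those away from it. Against 6.33% of all MBD3 regions and 1.1% of all CTCF regions, TET2 was called at 152 of the 3727 MBD3 regions at CTCF, or 4.08% (3.49% to 4.76%), and at 266 of the 2881 away, or 9.23% (8.23% to 10.3%). Of the 152, 104 were in the lowest 10% of CTCF fold. In each stratum of CTCF fold over all CTCF regions, TET2 was called more often at regions with MBD3 than without. The shares were 33.8% against 2.74% in stratum 1 and 1.69% against 0.427% in stratum 10. Among MBD3 regions away from CTCF, TET2 was called at 30.2% (25.9% to 34.8%) of those with TET1 and at 5.85% (4.99% to 6.84%) of those without.

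Most MBD3 regions away from CTCF lay more than 10 kb from it. The median distance from their summit to the nearest CTCF summit was 20.8 kb (quartiles 7.78 and 47.5 kb) over 2867 regions, and the other 14 lay on mitochondrial DNA, where no CTCF region was called. The shortest distance was 132 bp and the longest 557.8 kb. On chromosomes 1 to 22 and X, 126 of 2857, or 4.41% (3.72% to 5.23%), were within 1 kb, 30.5% within 10 kb and 76.7% within 50 kb. Of the span outside CTCF regions, 2.41%, 22.3% and 63.5% lay within these distances. The ratio of the share of regions to the share of span was 1.37 within 0.5 kb, where 40 regions lay, 2.18 at 0.5 to 1 kb, 1.31 at 1 to 10 kb, 1.12 at 10 to 50 kb, 0.892 at 50 to 100 kb and 0.469 beyond 100 kb. Unassembled stretches were not taken out of the span. Nor were bases so near a CTCF region that an MBD3 region centred there would overlap it and count as at CTCF. This lowers the ratio within 0.5 kb, so that ratio cannot be set against the one at 0.5 to 1 kb. Under the rule of 50% overlap, which counts more regions as away, 59.8% were within 10 kb.

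**Figure D4:**
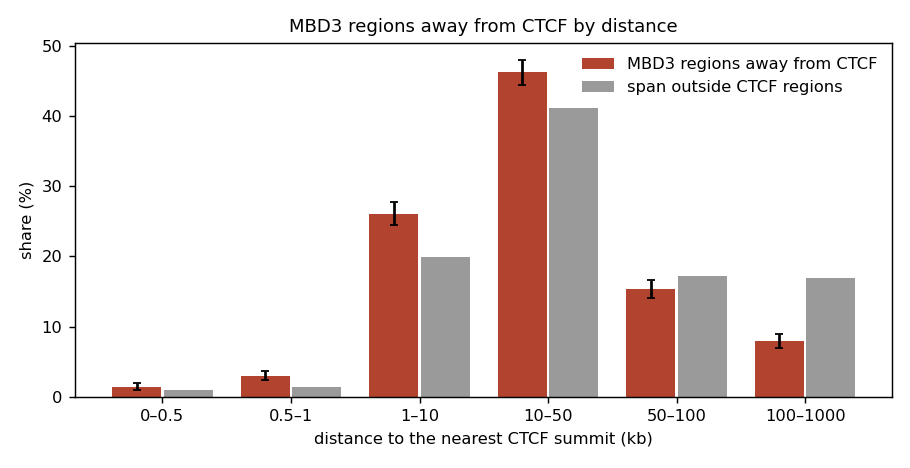
MBD3 regions away from CTCF (n = 2857, chromosomes 1 to 22 and X) and the span outside CTCF regions, as shares (y axis, %) in classes of distance to the nearest CTCF summit (x axis, kb); bars on the regions are Wilson 95% intervals. Within 0.5 kb the shares are 1.40% of regions and 1.02% of span. The regions exceed the span at 0.5 to 1 kb (3.01% against 1.38%) and at 1 to 10 kb (26.1% against 19.9%). They fall short of it beyond 100 kb (7.95% against 16.9%). The span within 0.5 kb includes bases where an MBD3 region would overlap CTCF and so count as at CTCF.

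Among MBD3 regions away from CTCF, fold and width overlapped in their quartiles at all distances. The median fold was 4.40 in the 40 regions within 0.5 kb, 5.04 at 0.5 to 1 kb, 4.83 at 1 to 10 kb, 5.04 at 10 to 50 kb, 5.05 at 50 to 100 kb and 4.94 beyond. The median width stayed between 193 and 211 bp. TET1 was called at 12 of the 40 within 0.5 kb, or 30.0% (18.1% to 45.4%), and at 12.5% to 16.3% in the other classes. The overlap rule itself drew a sharp line through few regions: 12 of the pairs shared under 50 bases. Just inside it, the MBD3 region at 27557207 to 27557554 on chromosome 13 shared 1 bp with a CTCF region of 5.07-fold, at 9.53-fold for MBD3, and regions on chromosomes 10 and 4 shared 9 and 18 bp. Just outside it, the region at 106209210 to 106209501 on chromosome 7 was 1 bp short of a CTCF region of 5.04-fold, at 3.93-fold for MBD3, and regions on chromosomes 8 and 4 were 3 bp short.

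The 5 strongest MBD3 regions away from CTCF had 10.7- to 11.8-fold, ranks 27 to 69 in the list. The strongest lay at 84951591 to 84951932 on chromosome 7, 130.9 kb from the nearest CTCF summit, with neither TET1 nor TET2. That at 71544366 to 71544795 on chromosome 15 had 11.5-fold and lay 56.8 kb from CTCF, with TET1. At 93012988 to 93013387 on chromosome 5 MBD3 had 11.1-fold, 4.17 kb from CTCF, and both TET1 and TET2 were called. The others lay at 29565167 to 29565763 on chromosome 10, with 11.1-fold and no TET, and at 179900128 to 179900372 on chromosome 1, with 10.7-fold and TET1. These 5 had widths of 245 to 597 bp, all above the 205 bp median of their class. The MBD3 region farthest from any CTCF summit, at 557.8 kb, was at 145952307 to 145952510 on chromosome 2, with 5.05-fold.

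A small group of MBD3 regions had low fold but very sure calls: of the 16 with −log10 q of 50 or more, 14 had a fold under 3. The 3 at CTCF with the highest −log10 q were on chromosomes 19, 1 and 2. That at 27731965 to 27732321 on chromosome 19 had a −log10 q of 248 but 2.12-fold, with CTCF at 1.75-fold. That on chromosome 1, at 121485051 to 121485392, had a −log10 q of 149.8 but 1.42-fold, with CTCF at 1.34-fold. The 3 away from CTCF with the highest −log10 q, on chromosomes 11, 8 and 10, had 2.39-, 4.63- and 1.72-fold. TET1 and TET2 were called at all 6, against 57.1% and 6.33% of all MBD3 regions. On chromosomes 1 to 22 and X, 63 MBD3 regions had a fold under 3. Not all were surely called: 30 of them reached a −log10 q of 10. Of the 63, 39, or 61.9%, lay within 1 Mb of the longest stretch without a CTCF region on their chromosome. The share was 0.738% for the 6505 regions of 3-fold or more. Of the 63, 30 were at CTCF, or 47.6%, against 56.6% of the regions of 3-fold or more. The 14 mitochondrial regions also had low fold, between 1.21 and 2.01, and carried both TET1 and TET2.

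The balance between regions at CTCF and away from it varied by chromosome. The share at CTCF was highest on chromosomes 19, at 86.7% (80.8% to 91.0%) of 173 regions, and 16, at 85.6% (78.4% to 90.7%) of 125. It was lowest on chromosomes 13, at 35.7% (30.6% to 41.2%) of 311, and 18, at 38.4% (30.3% to 47.2%) of 125. MBD3 regions at CTCF followed the number of CTCF regions, with a rho of 0.89 between regions per Mb over the 23 chromosomes. Each of them shares a base with a CTCF region by definition, so part of this rho is built in. For MBD3 regions away from CTCF, which share none by definition, rho was −0.24. Chromosomes 10 and 13 had the most regions away from CTCF, at 2.11 and 2.09 per Mb, and chromosome 16 the fewest, at 0.200 per Mb.

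**Figure D5:**
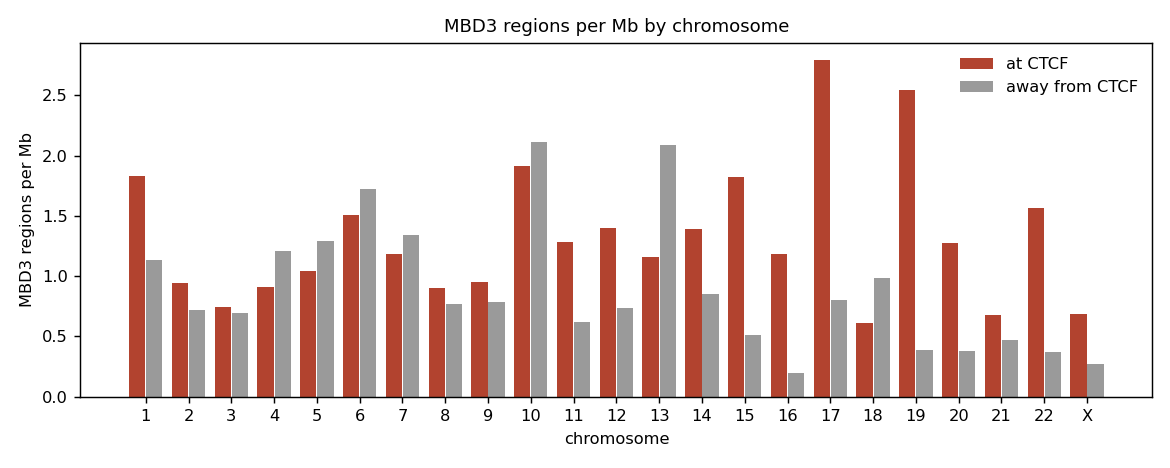
MBD3 regions at CTCF and away from CTCF per Mb of the span between first and last listed positions (y axis) on chromosomes 1 to 22 and X (x axis), 1 pooled list. Regions at CTCF reach 2.80 per Mb on chromosome 17 and 2.54 on chromosome 19, where those away stand at 0.801 and 0.390, while on chromosome 13 they are 1.16 at CTCF and 2.09 away.

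Chromosome 10 stood out for MBD3 at strong CTCF sites as well. Of its 207 CTCF regions in stratum 10 of fold, 64.7% carried MBD3, against 45.4% over all chromosomes and 33.0% of 94 on chromosome 22. MBD3 regions at CTCF were less clustered than those away from it: 12.0% had another MBD3 summit within 10 kb, against 23.7% (22.2% to 25.3%) away. The densest window of 1 Mb, from 67000001 to 68000000 on chromosome 13, held 33 MBD3 regions away from CTCF beside 27 CTCF regions, and 5 of the 33 carried TET1. The next, from 124000001 to 125000000 on chromosome 5, held 18, of which 6 carried TET1. Of all MBD3 regions away from CTCF, 13.9% carried TET1. In all, 133 windows held at least 5 such regions, and together they took in 31.3% of the MBD3 regions away from CTCF.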

How the data were processed

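The 4 narrowPeak lists of cells without IAA were used, 1 for each antibody, and the 4 lists with IAA were not used here. Per the submitters' processing notes, the tools were FastQC 0.11.7, Bowtie2 2.3.4, SAMtools 1.9, MACS2 2.1.2 and bedtools 2.25.0, with the build hg19; the step each served and the control are not given in the sources used here. The deposited row names show that the authors called peaks on the 3 samples of an antibody together. Column 7 as deposited is the fold enrichment, a ratio. Column 9 as deposited is −log10 of the q-value, and the highest q in the MBD3 list was 0.0497. No read depth can be read from the lists.

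Within a list, rows with 1 bp or more in common were merged (6736 rows gave 6608 MBD3 regions, 43879 gave 42925 CTCF regions). A region took the highest fold and −log10 q among its rows, and its summit from the most surely called row. An MBD3 region was matched to the CTCF region with which it shared most bases. Distances to the nearest CTCF summit used the summits of all rows. Python 3.11.15, pandas 2.3.3, numpy 2.4.6 and scipy 1.17.1 were used, and joining, overlap and distance were tested on simulated data. No chance test was made, since regions of pooled lists are not replicates. The regions, strata and classes were chosen with earlier results of these data known. Named regions are, on chromosomes 1 to 22 and X, the 5 of highest MBD3 or CTCF fold in each class, the 3 of highest −log10 q, the farthest from CTCF (1 of 3 is printed), the CTCF regions with most MBD3 regions, and those nearest to the overlap limit. No sequence was printed, because no hg19 sequence was used here.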

Additional observations from a re-analysis of the deposited data

How the results depend on the processing

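Minimum −log10 q values of 5 and 10, a minimum fold of 3, a 50% overlap of both regions, a match by summits within 200 bp, single rows, and chromosomes 1 to 22 and X were tried for 11 results, and the pairs without the 10% of lowest CTCF fold, a setting chosen after seeing the data, for 3 of them; 46 of 80 values stayed within the 95% interval of the value given above (Wilson, binomial for medians, Fisher's z for rho) and 34 moved outside it. The order of the median MBD3 folds at CTCF and away turned at −log10 q of at least 10, a limit set on the CTCF list as well. The fold minimum, summits within 200 bp, single rows and the chromosome limit moved none of the 11.

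At −log10 q of at least 5 the share of MBD3 regions at CTCF was 73.7% and of CTCF regions with MBD3 6.35%, the median MBD3 fold 6.68 at CTCF and 6.59 away, the summit distance 9 bp, the width ratio 0.485, the distance of regions away from CTCF 25116 bp with 26.1% within 10 kb, and TET1 at 95.7% of regions at CTCF and 12.4% away. At −log10 q of at least 10 these were 83.8%, 2.46%, 8.13 at CTCF and 8.64 away, 7 bp, 0.506, 26586 bp with 28.8%, and 98.5% and 20.7%, with a rho of fold of 0.63. With 50% of both regions overlapping they were 24.9%, 3.83%, 6.17 at CTCF and 5.21 away, 13 bp, 0.593, 3081.5 bp with 59.8%, and 84.2% and 42.0%, with a rho of 0.58; that rule counts as away each narrow MBD3 region inside a CTCF region of over 2 times its width. Without the 10% of pairs with lowest CTCF fold rho was 0.60 and the width ratio 0.476.

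No paired analysis was possible because each list pools the 3 numbered samples of an antibody, and no replicate was left out. The unknown depth limits how far a missing MBD3 call at a CTCF site can be read, and genes and motifs at the regions were not analysed here.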
